A study of Glycine max with 12 samples.

Results

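Roots of the soybean material labelled OX3 were compared at 50 and 5 µM MnSO4, the concentrations of the manganese (Mn) treatment and of the control. The comparison used 6 of the 12 RNA sequencing libraries of the study, 3 at each concentration, all numbered 2, 3 and 4 within their dose. The other 6 libraries came from roots of the material labelled W at the same doses. The authors' tables head OX3 as OX and W as WT, but the labels do not say what was changed in OX3, whether it is 1 line or several, or how long the treatment lasted. Separate plants or cultures are not stated for the replicates either, so the p-values speak for the spread among these libraries, part of which may be technical.

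Manganese is a cofactor of the water-splitting complex of photosystem II and of a mitochondrial superoxide dismutase. Roots take it up through divalent metal transporters of the NRAMP and ZIP families, and proteins of the metal tolerance family move surplus manganese into vacuoles and other compartments. In excess it is toxic to legumes, and it is known to interfere with the uptake and use of iron.

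Genes are given by identifier, such as Glyma.06G302300, with the ending .Wm82.a2.v1 of the deposited identifiers left off. None of the 43517 identifiers matched the RefSeq gene table (0 matched), so no function could be given for any gene, the root origin of the samples could not be checked against marker genes, and no sequence is printed. For the same reason only the 2 leading genes in each direction are named for a comparison, or all genes past the threshold where there were 5 or fewer. In each identifier the digits ahead of the letter G give the chromosome. Levels are CPM, the counts of a gene relative to the normalised total of its library, unless FPKM is stated, which is also per kilobase of gene length and allows genes to be compared with each other.

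Total counts of the OX3 libraries ranged from 18943022 to 19408318 at 5 µM and from 15175866 to 17760144 at 50 µM, so every control library was deeper than every treated one. The number of genes detected with 1 count or more was 35517 to 36862. The 1164 to 2059 most abundant genes of a library held 50% of its counts. On the first principal component of the 6 libraries, which held 40.6% of the variance, control replicates 2 and 3 lay at -74.5 and -85.0, and replicates 2 and 3 at 50 µM at 103.4 and 71.6. The libraries numbered 4 lay between them, at -35.3 for the control and 19.7 for 50 µM. The second component, with 22.9% of the variance, set control replicate 4 apart at -103.4, while the other 5 libraries lay between -18.1 and 56.9.

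**Figure D1:**
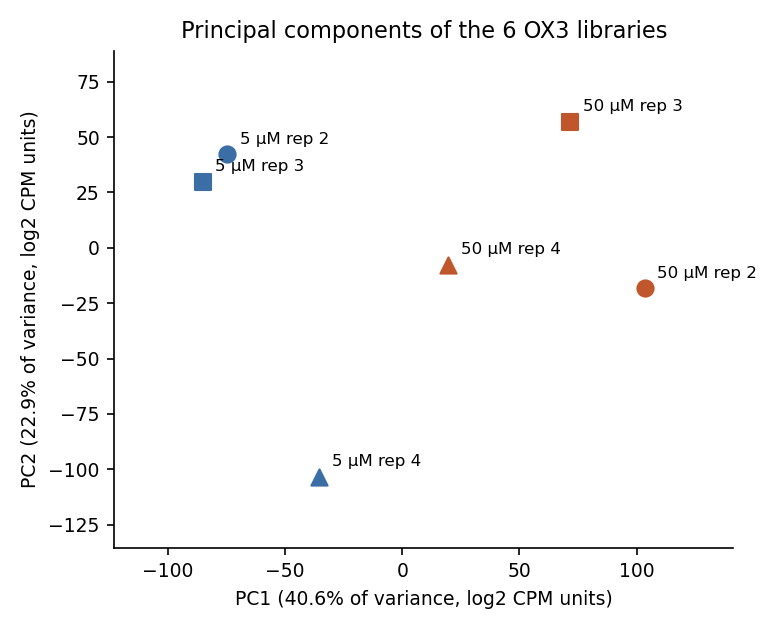
Positions of the 6 OX3 libraries on the first (x) and second (y) principal component of log2 CPM, with each point 1 library, blue at 5 µM and orange at 50 µM MnSO4. Both libraries numbered 4 lie between the others on the first component, at -35.3 and 19.7, and control replicate 4 stands apart on the second at -103.4.

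The question was which genes of OX3 roots respond to the 50 µM dose. Of 31841 genes tested with edgeR's quasi-likelihood method, 0 reached an adjusted p of 0.05 (0.0%), and the smallest adjusted p was 0.0847. Before adjustment, 2407 genes higher at 50 µM (7.56%) and 2685 lower ones (8.43%) had a p under 0.05, so 47.3% of them were higher. The majority changed side with the fit. The share higher was 51.4% with RLE size factors and 52.6% in DESeq2, but 46.7% in limma-voom and 42.5% with the 6 OX3 libraries alone. On the deposited FPKM, which are scaled by total counts alone, 24.8% of the genes under that p were higher with a pseudocount of 1 and 26.6% with a pseudocount of 0.1. In these fits, which also differ in test and pseudocount, the median log2 difference of all tested genes was -0.14 and -0.19, against -0.03 in edgeR with TMM. DESeq2 called 1116 of the genes tested (3.5%), 685 higher (2.15%) and 431 lower (1.35%), all of which were under an unadjusted p of 0.05 in edgeR's test. Limma-voom called 0. The count under an unadjusted p of 0.05 was 3332 without replicate 2 at 50 µM, against 5092 with all libraries.

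All 3 treated libraries lay above all 3 controls in 2991 genes (9.39%), and below them in 3728 (11.7%). With a log2 fold change of at least 1 and a mean of at least 2 CPM as further conditions, 751 genes were higher (2.36%) and 939 lower (2.95%). From these, the 12 genes with the smallest unadjusted p in each direction were taken as the leading genes. Their doses do not overlap by that choice, so the values below describe them and are not evidence of a response. None of the 24 passed the threshold in edgeR's test, with adjusted p-values from 0.0847 to 0.148, whereas DESeq2 called all 24.

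The leading lower gene was Glyma.06G302300 on chromosome 6, which also had the smallest p of all genes. Its level was 23.5, 30.9 and 15.9 CPM in control replicates 2, 3 and 4, and 3.85, 3.16 and 3.74 CPM in the same replicates at 50 µM. The 3 treated libraries lay close together, replicate 4 included, and the lowest control was replicate 4. The log2 fold change was -2.71 (SE 0.32, adjusted p = 0.0847 in edgeR). Without control replicate 4 this gene passed, at a log2 fold change of -2.92 (adjusted p = 0.0442 in edgeR). It did not pass when any other OX3 library was left out, with adjusted p-values from 0.0543 to 0.305 in edgeR. The W libraries, where the doses overlapped, had 8.73 ± 2.4 CPM (SD, n = 3) in the control and 11.3 ± 3.4 CPM (SD, n = 3) under treatment. The difference in log2 response, OX3 minus W, was -3.08 (SE 0.44). This was tested after the data were seen and did not pass the adjustment over all genes (adjusted p = 0.246 in edgeR's test).

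The second lower gene was Glyma.20G186500 on chromosome 20. Its control levels were 49.7, 48.1 and 32.4 CPM in replicates 2, 3 and 4, and its levels at 50 µM were 9.66, 10.8 and 11.4 CPM. Again the treated libraries were nearly equal and control replicate 4 was the lowest control. The log2 fold change was -2.03 (SE 0.35, adjusted p = 0.148 in edgeR). In W the control level was 33.1 ± 15 CPM (SD, n = 3) and the treated level 13 ± 4.5 CPM (SD, n = 3). The log2 fold change in W was -1.35 (SE 0.34, adjusted p = 0.138 in edgeR). Per gene length, Glyma.06G302300 and Glyma.20G186500 were at similar mean levels in the OX3 controls, 21.9 and 22.2 FPKM.

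The leading higher gene was Glyma.18G118300 on chromosome 18. It was at 0.662, 0.434 and 0.713 CPM in the control replicates 2, 3 and 4, and at 7.11, 9.24 and 2.73 CPM at 50 µM. Replicate 4 at 50 µM lay above every control but well below the other treated libraries. The log2 fold change was 3.38 (SE 0.45, adjusted p = 0.145 in edgeR) and rested on 39 counts over the controls and 307 over the treated libraries. In W the control level was 1.35 ± 0.41 CPM (SD, n = 3) and the treated level 11.6 ± 2.1 CPM (SD, n = 3). The log2 fold change in W was 3.10 (SE 0.43, adjusted p = 0.138 in edgeR).

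The second higher gene, Glyma.02G059400 on chromosome 2, showed another arrangement. Its levels were 0.993, 0.675 and 1.53 CPM in the controls and 11, 10.6 and 10.7 CPM at 50 µM. Here replicate 4 at 50 µM was level with the other treated libraries. The log2 fold change was 3.33 (SE 0.49, adjusted p = 0.148 in edgeR). The W libraries spread widely at 5 µM, with 2.28, 5.06 and 9.79 CPM in replicates 2, 3 and 4, and lay between 6.89 and 11.8 CPM at 50 µM, so the doses overlapped there. The difference in log2 response, OX3 minus W, was 2.55 (SE 0.64, adjusted p = 0.598 in edgeR for that difference).

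**Figure D2:**
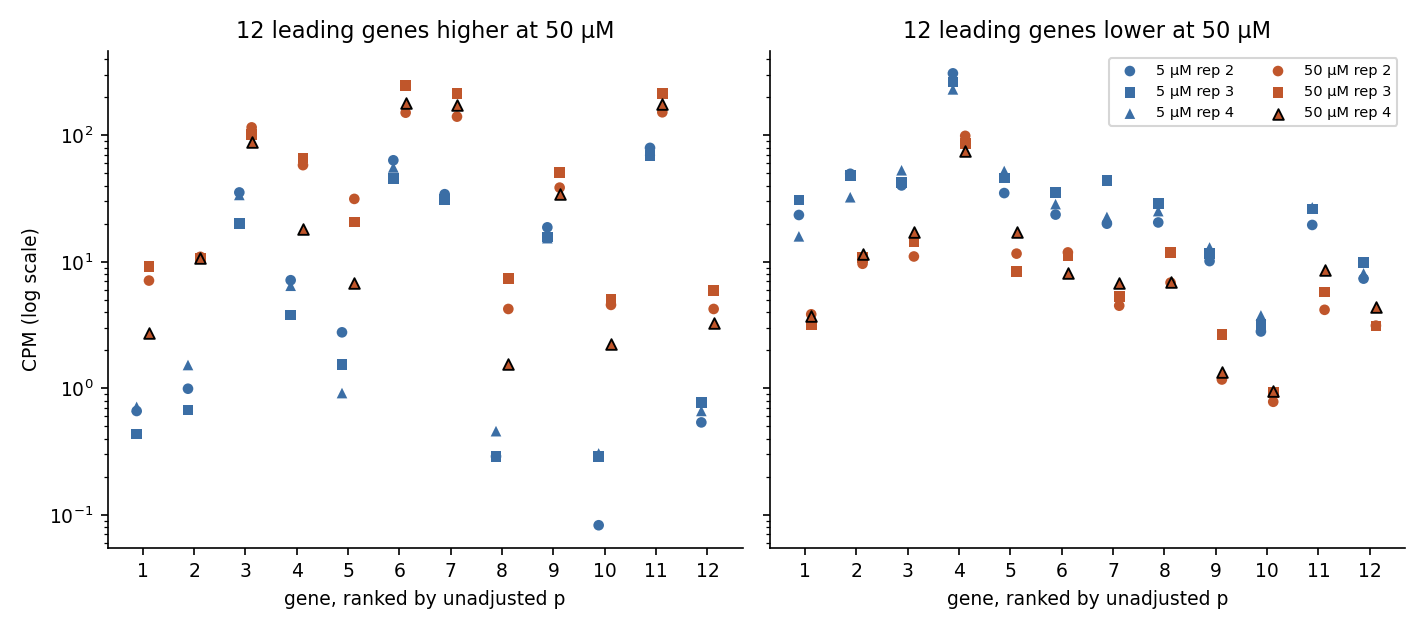
Level in CPM (y, log scale) of the 12 leading genes higher (left) and 12 lower (right) at 50 µM in OX3, ranked by unadjusted p (x), with 1 point per library. Orange points lie on one side of the blue points by the rule that chose the genes, and the outlined triangle, replicate 4 at 50 µM, is the treated library nearest the controls in 15 of the 24.

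The 12 leading higher genes lay on 8 chromosomes and the 12 lower ones on 11. Log2 fold changes ran from 1.27 to 4.11 in the higher genes and from -2.74 to -1.25 in the lower. Mean levels over the 6 libraries had a median of 5.28 FPKM in the higher genes, with a range of 1.33 to 82.3, and of 14.5 FPKM in the lower, with a range of 1.22 to 233.6. Replicate 4 at 50 µM was the treated library nearest the control mean in 8 of the 12 higher and 7 of the 12 lower genes, replicate 2 in 3 and 3, and replicate 3 in 1 and 2. When the control mean is set at 0 and the mean of replicates 2 and 3 at 50 µM at 1 on the log2 CPM scale, replicate 4 at 50 µM lay between 0.49 and 1.00 in the higher genes, with a median of 0.76. In the lower genes it lay between 0.63 and 1.36, with a median of 0.92. The rule that chose the genes required replicate 4 to lie beyond every control, which bears on these counts and positions. On genes ranked without it, its mean position was 0.371, as described below. How often it is the nearest library over all tested genes was not counted. Leaving replicate 4 at 50 µM out changed the median log2 fold change from 2.90 to 3.14 in the higher genes and from -1.85 to -2.0 in the lower.

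The levels in W did not enter the fold changes that chose these 24 genes. The W libraries did share in the estimate of spread behind the ranking and in the filter on low counts, so p-values in W are not independent of the choice and are not counted here. All 12 higher genes had a positive log2 fold change to Mn in W, where 48.4% of all tested genes did, with a median of 1.24. Of the 12 lower genes, 9 had a negative log2 fold change in W, where 51.6% of all tested genes did, with a median of -0.41. None of the 24 passed the adjustment in W, the smallest adjusted p being 0.138 in edgeR's test. The difference between OX3 and W, tested for each gene, gave adjusted p-values of 0.246 or more. The W and OX3 libraries share replicate numbers in part, and whether any were handled together is not stated.

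**Figure D3:**
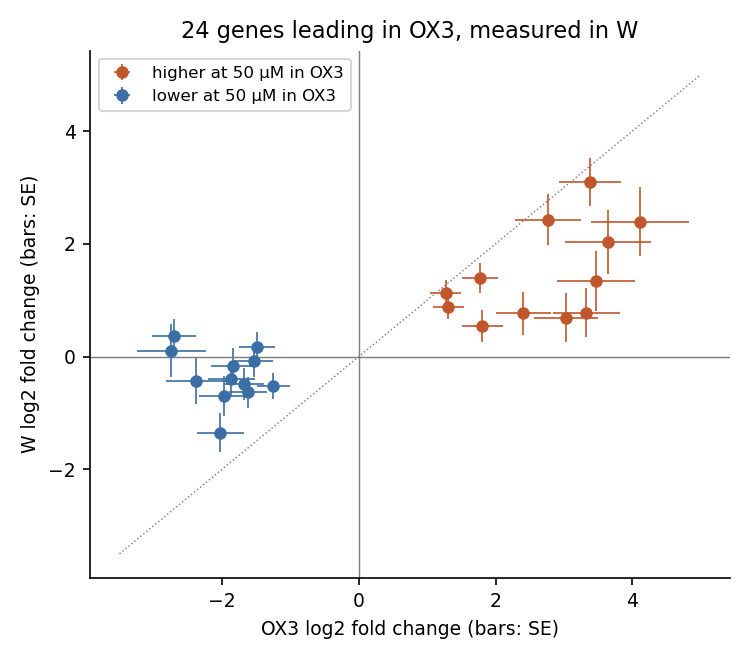
Log2 fold change of the 24 leading genes in OX3 (x) and in W (y) between 50 and 5 µM MnSO4, with standard errors as bars and equality as the dotted line. The 12 genes higher in OX3 are all above 0 in W, while 3 of the 12 lower ones are above 0 in W.

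Without replicate 4 at 50 µM, 13 of 32478 genes passed the threshold in edgeR's test. That library was singled out because it lay nearer the controls than replicates 2 and 3 at 50 µM did in these same data. The p-values without it therefore follow a choice made on the data. All 13 genes were higher at 50 µM (0.04%) and none was lower (0.0%). DESeq2 with every library kept also called all 13, but that fit includes the libraries that chose them and is not separate evidence. Their log2 fold changes lay between 3.19 and 6.09 and their adjusted p-values between 0.00687 and 0.047 in edgeR's test. Mean levels over the 6 OX3 libraries ran from 0.963 to 14.0 FPKM. The 2 with the smallest p were Glyma.04G123800 and Glyma.18G118300. Glyma.04G123800, on chromosome 4, was at 0.952, 0.917 and 0.917 CPM in the controls, at 12.5 and 14.3 CPM in replicates 2 and 3 at 50 µM, and at 1.23 CPM in replicate 4 at 50 µM. The library left out therefore lay near the controls for this gene. Its log2 fold change was 3.84 (SE 0.35) without that library and 3.32 (SE 0.69) with it, and the adjusted p went from 0.00687 to 0.148 in edgeR's test. In W this gene had 1.11 ± 0.52 CPM (SD, n = 3) in the control and 5.6 ± 0.83 CPM (SD, n = 3) under treatment.

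Across the 13 genes, control levels ran from 0.0414 to 7.16 CPM, replicates 2 and 3 at 50 µM from 2.02 to 115 CPM, and replicate 4 at 50 µM from 0.0558 to 18.3 CPM. Replicate 4, which had no part in the choice of these genes, lay above all 3 controls in 8 of the 13, within their range in 4 and below them in 1. How often it did so over all tested genes was not counted, so these counts are a description only. On the scale from the control mean at 0 to replicates 2 and 3 at 1, its positions ran from -0.08 to 0.57 with a median of 0.28. In W, 11 of the 13 genes had a positive log2 fold change, against 48.4% of all tested genes, and 2 had a negative one.

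The other library numbered 4, the control, also bore on the calls. Without it 2 of 32211 genes passed in edgeR's test, both lower at 50 µM (0.00621%), and none was higher (0.0%). They were Glyma.06G302300 and Glyma.10G249200. The latter, on chromosome 10, was at 7.45 and 11.3 CPM in control replicates 2 and 3 but at 1.33 CPM in control replicate 4, within the range of 1.23 to 1.44 CPM seen at 50 µM. Its log2 fold change was -2.80 without control replicate 4 and -2.31 (SE 0.58) with it. Without both libraries numbered 4, an alternative chosen after seeing the data, 3 of 32127 genes passed in edgeR's test, all higher at 50 µM (0.00934%) and all among the 13. They were Glyma.18G118300, Glyma.04G123800 and Glyma.15G159900. The last, on chromosome 15, was at 0.166, 0.0965 and 0.459 CPM in the controls, at 7.37 and 11.7 CPM in replicates 2 and 3 at 50 µM and at 0.279 CPM in replicate 4, and had only 15 counts over the controls.

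To place each library on genes it had not helped to rank, the 200 genes with the smallest p in the fit without that library were used. They were taken from the genes tested in the main fit, so that library still shared in the filter on low counts. A position of 0 is the mean of the other controls and 1 that of the other libraries at 50 µM. Replicate 4 at 50 µM had a mean position of 0.371, with 67 of the 200 genes under 0.25 and 22 over 0.75. Replicates 2 and 3 at 50 µM had mean positions of 0.848 and 0.734. Control replicates 2, 3 and 4 had mean positions of 0.317, 0.169 and 0.559, and control replicate 4 had 45 genes under 0.25 and 62 over 0.75. Each of these 6 positions uses its own 200 genes. For replicate 4 at 50 µM the 149 genes higher at 50 µM gave a mean of 0.353 and the 51 lower ones 0.421.

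Both libraries numbered 4 were also set on the same 200 genes, ranked on replicates 2 and 3 of each dose. There the control lay at 0.377 and the 50 µM library at 0.462. The 50 µM library lay farther toward the other 50 µM libraries in 119 of the 200 genes and the control in 81. Both libraries thus lay between the doses on genes that separate the other 4. Genes of smallest p overstate the gap between the libraries that chose them, which draws a left-out library inward. Each OX3 library left out alone also lay inward, and no other pair of libraries was left out for comparison. A mean position between 0 and 1 is therefore not by itself a sign of an unusual library. Over all genes, replicate 4 at 50 µM correlated with the controls at r between 0.927 and 0.933 and with replicates 2 and 3 at 50 µM at 0.943 and 0.930, and replicates 2 and 3 correlated with the controls at 0.883 to 0.904. Control replicate 4 correlated with its own group at 0.910 and 0.914 and with the treated libraries at 0.904, 0.883 and 0.927. These correlations are over genes, which are not independent replicates.

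**Figure D4:**
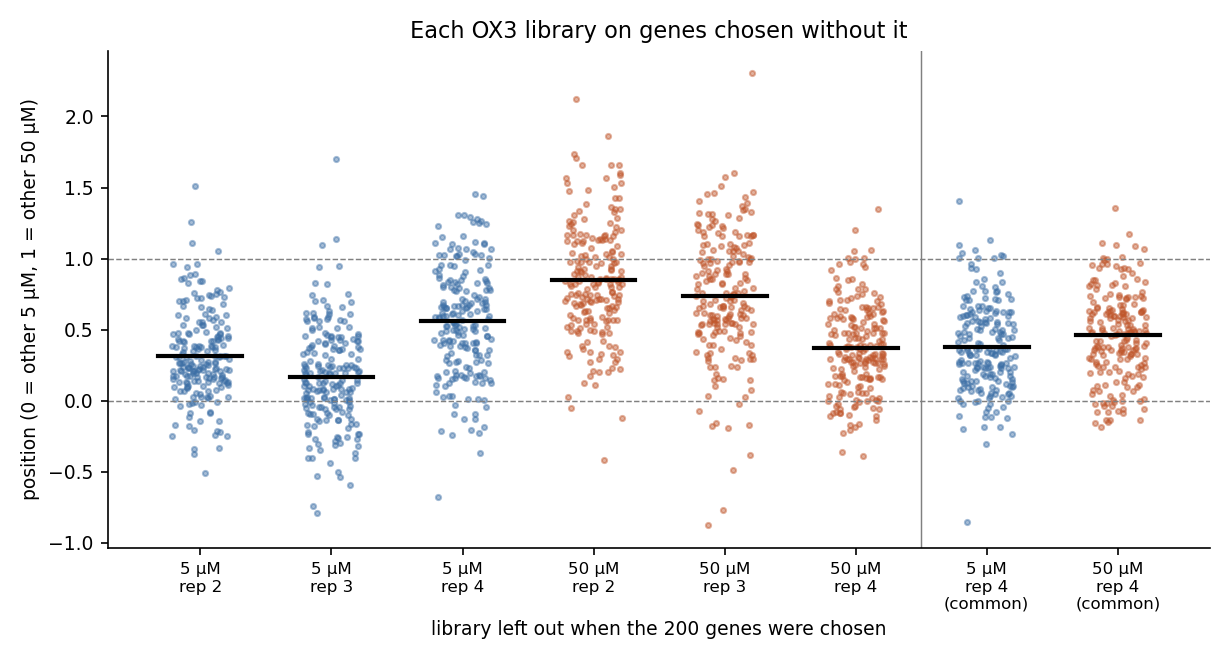
Position of each OX3 library (x) between the other 5 µM libraries at 0 and the other 50 µM libraries at 1 (y), with 1 point per gene for 200 genes ranked without that library and the mean as a black bar. Replicate 4 has a mean of 0.371 at 50 µM and 0.559 at 5 µM, and on the genes ranked without both (right of the line) 0.462 and 0.377.

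The spread between libraries of a dose, as the median over genes of the SD of log2 CPM, was 0.373 at 5 µM and 0.362 at 50 µM. It was 0.298 at 50 µM without replicate 4, a value from 2 libraries. At equal spread the median SD of 2 libraries lies below that of 3, so 0.298 and 0.362 cannot be compared.

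The direction of the differences went with abundance. When the tested genes were divided into quintiles by mean FPKM in OX3, the median log2 fold change was -0.32 in the lowest quintile, of at most 1.17 FPKM, followed by -0.18, -0.04 and 0.06, and was 0.13 in the highest quintile, above 18.0 FPKM. In the lowest quintile 4.43% of genes were higher and 9.42% lower at an unadjusted p under 0.05, and in the highest quintile 10.4% were higher and 5.56% lower. Leaving out each OX3 library in turn gave medians between -0.44 and -0.21 in the lowest quintile and between 0.09 and 0.17 in the highest. For the same genes in W the medians from the lowest quintile to the highest were -0.04, -0.14, -0.12, -0.02 and 0.16, so they did not rise at each step. The part of the lower depth of the OX3 libraries at 50 µM in the OX3 values was not tested.

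**Figure D5:**
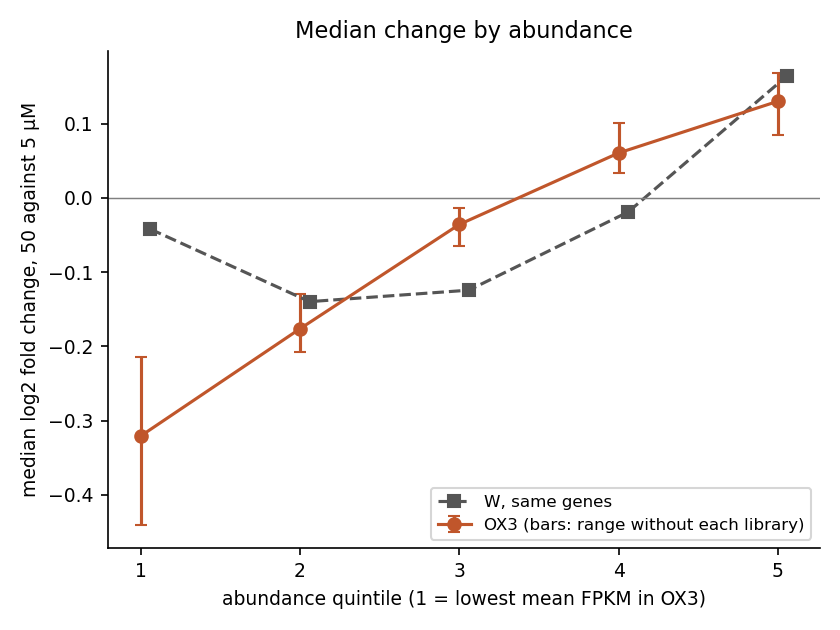
Median log2 fold change between 50 and 5 µM MnSO4 (y) in quintiles of the tested genes by mean FPKM in OX3 (x), for OX3 with the range without each OX3 library as bars and for W without bars. In OX3 the median goes from -0.32 in the lowest quintile to 0.13 in the highest.

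Genes seen at one dose alone were few in counts. In OX3, 156 of the 43517 genes had 0 counts in all 3 libraries at 50 µM and at least 1 in every control. They had a median of 8 counts over the controls and at most 69. The opposite arrangement was found in 30 genes, with a median of 6 counts over the libraries at 50 µM and at most 71. A count of 0 over 3 libraries allows up to 3 counts, and the controls were the deeper libraries, so most of these genes lie near the detection limit. How much of the difference between 156 and 30 genes goes with depth was not tested. The filter on low counts kept 1 of the 156 and 5 of the 30.

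By gene length the median log2 fold change in OX3 was -0.05 in the shortest quintile and 0.03 in the longest. Neither sign held when 1 OX3 library was left out, with ranges from -0.09 to 0.01 and from -0.02 to 0.07. The shortest quintile was above 0 without control replicate 4, and the longest was below 0 without replicate 4 of either dose. In W the same quintiles gave 0.27 and -0.32. Whether the materials differ in this was not tested. Genes at an unadjusted p under 0.05 were found on all 20 chromosomes, with higher genes making up between 5.68% of the tested genes on chromosome 20 and 8.67% on chromosome 3, and lower genes between 6.81% on chromosome 18 and 10.1% on chromosome 5. Fold changes of genes that are next to each other in the numbering of a chromosome correlated at r = 0.133 over 31649 pairs in OX3. The correlation was 0.0645 for genes 2 places apart and -0.00658 for genes 10 places apart, and in W it was 0.121 for neighbours. These values are a description across pairs of genes measured in the same libraries.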

How the data were processed

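Root RNA was isolated with Trizol reagent, and the VAHTS Universal V6 kit served for library preparation, per the labels' protocols. The authors deposited raw read counts per gene and FPKM, each with 1 column per library. HTSeq 0.6.0, HISAT2 2.1.0, Bowtie2 2.2.3, TopHat2 and CASAVA were used in roles not stated, per the submitters' processing notes. The use of strand and the treatment of reads shared by similar genes are not given in the sources used here, so values of near-identical or overlapping genes are uncertain. Each deposited FPKM equalled the count scaled by column total and a whole-number gene length.

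The test was edgeR's (4.0.16, in R 4.3.3) on all 12 libraries, a coefficient for each of 4 groups, filterByExpr (31841 genes kept of 43517, of which 3303 had 0 counts throughout) and TMM scaling. The newer quasi-likelihood method of glmQLFit was used, with two-sided p-values, adjusted by Benjamini-Hochberg over the genes tested, and a threshold of 0.05. The SE of an edgeR log2 fold change is its size divided by the square root of the F statistic of that test. Principal components, correlations and positions were computed on log2 CPM (prior count 2). Alternatives used DESeq2 1.42.0 (1327 genes without an adjusted p) and limma 3.58.1. Tables were handled with pandas 2.3.3.

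Named genes were to be the 12 of smallest p in each direction, at a mean of 2 CPM or more, a log2 fold change of 1 or more in size and with doses not overlapping, reduced to 2 where no table names the genes. The comparison and its lists were chosen with earlier results of these data known. The 34 gene lists by product description had 0 members, since no identifier was matched. Counting limits cover counting error only.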

Additional observations from a re-analysis of the deposited data

How the results depend on the processing

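The count of 0 genes past the threshold was the same with RLE size factors, with no filter or a stricter filter on low counts, with the 6 OX3 libraries alone, with a robust or the older estimate of the spread, with limma-voom with and without sample weights, and with limma-trend on log2 FPKM. DESeq2 called 1116, and 1410 without replicate 4 at 50 µM. Leaving out 1 OX3 library gave between 0 and 13 genes, and leaving out both libraries numbered 4 gave 3, with 5484 under an unadjusted p of 0.05. The last of these and DESeq2 without replicate 4 were chosen after seeing the data. Each OX3 library was left out in turn by plan. Replicate 4 at 50 µM was singled out for description because it lay nearer the controls than replicates 2 and 3 at 50 µM. The count under an unadjusted p of 0.05 ranged from 3332 to 5346 without 1 library, and stayed within 1.5 times of 5092 in the other alternatives. The cause of these changes was not tested. Replicate numbers have no stated meaning. Deviations from the group mean correlated at -0.19, -0.02 and -0.08 between same-numbered OX3 libraries, and at -0.16 to 0.26 between differently numbered ones. So few libraries cannot decide whether the numbers mark pairs, and the numbers were not taken as pairs. A replicate block gave counts of 0 and 4961 (0 and 3930 within OX3 alone). The mean position of replicate 4 at 50 µM lay between 0.323 and 0.393 over 4 alternatives and the value given. For the 7 named genes, 145 alternative values kept their direction in every case, 22 of them past the threshold. These genes were chosen from the same libraries for large differences or for passing with a library left out, so a reversal was unlikely from the start. The 22 all came from DESeq2 or from fits without a library numbered 4, some of which chose the genes. Gene list medians could not be recomputed because the lists had no members. Genes of few counts, such as Glyma.15G159900, have fold changes that rest on little depth.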
